A study of Mus musculus with 2 samples.

Results

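The microRNA genes Mir493, Mir337, Mir431, Mir433, Mir127, Mir434, Mir432, Mir3071, Mir136 and Mir370 lie between Dlk1 and Mir379 in the imprinted Dlk1-Dio3 domain of mouse chromosome 12. They were chosen by name and position, not by their levels, though with earlier results of these data known. They make up 10 of the 2202 microRNA genes in the counts, and all 10 were found in the annotation. The libraries came from the heart of female mice of the hybrid strain B6CASTF1/J aged 14 days, with RNA of under 30 bases, in 1 group of 2 biological replicates and with no treatment or second genotype. A label of replicate 1 speaks of 3 females and that of replicate 2 of a single female, without saying whether animals were pooled. One free-text label gives the age in months, and the age field of 14 days was followed. The heart muscle microRNAs Mir208a, Mir208b and Mir499 were present in both libraries, together at 0.517% of counted reads in replicate 1 and 0.341% in replicate 2.

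The Dlk1-Dio3 domain is expressed by parental origin. Its protein-coding genes Dlk1, Rtl1 and Dio3 are active on the paternal chromosome. Meg3, Rian, Mirg and the microRNAs on their strand are transcribed from the maternal one. Rtl1 is a gene derived from a retrotransposon and known for its role in placental and muscle growth. Several of the microRNAs are read from the strand opposite to Rtl1, and in mouse they direct cleavage of the Rtl1 messenger RNA, to which they are fully complementary. The deposited counts do not separate the parental alleles, so imprinting itself was not analysed here.

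The 19 mature microRNAs of the 10 genes, as given by RefSeq on GRCm38.p6, are the products behind the counts. A gene's count adds both arms of its hairpin, so the 5p and 3p products cannot be told apart in the levels. Mir127, Mir433, Mir337, Mir431 and Mir434, which gave most of the reads, are shown with the seed (bases 2 to 8, which guide target recognition) in capitals.
mmu-miR-127-5p: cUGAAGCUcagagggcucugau
mmu-miR-127-3p: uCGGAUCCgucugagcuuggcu
mmu-miR-433-5p: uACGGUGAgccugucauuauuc
mmu-miR-433-3p: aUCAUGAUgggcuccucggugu
mmu-miR-337-5p: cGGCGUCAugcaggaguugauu
mmu-miR-337-3p: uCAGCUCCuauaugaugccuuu
mmu-miR-431-5p: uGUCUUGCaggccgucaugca
mmu-miR-431-3p: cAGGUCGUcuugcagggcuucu
mmu-miR-434-5p: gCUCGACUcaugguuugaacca
mmu-miR-434-3p: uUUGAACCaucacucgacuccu

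No seed was shared among the 10 genes, as the 19 mature microRNAs had 19 distinct seeds. Of these seeds, 18 occurred in no other entry among the 1679 mature mouse microRNAs of the RefSeq table. The exception was mmu-miR-370-5p, whose seed AGGUCAC is also that of mmu-miR-1193-3p, a microRNA of the Mir379 to Mir410 group in the same domain. None of the 10 hairpins shared a stretch of 20 bases with another, non-overlapping microRNA gene. This bears on the counts because reads that mapped to several places were assigned to no gene. Over all 2202 genes, 1076 share such a stretch.

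The genes span 38.1 kb on mm10, from Mir493 (chromosome 12, 109580233 to 109580315, plus strand) to Mir370 (109618258 to 109618336, plus strand), and Mir379 begins 90.7 kb further on. Mir431 (109590447 to 109590537), Mir433 (109591715 to 109591838), Mir127 (109592846 to 109592915), Mir434 (109594506 to 109594599), Mir432 (109594956 to 109595030) and Mir136 (109595327 to 109595388) are all on the plus strand. They lie within 4.94 kb, each inside the coding sequence of Rtl1 (109589193 to 109600330, minus strand) and antisense to it. Mir3071 (109595318 to 109595397) lies in the same coding sequence but on the minus strand, in the sense of Rtl1. Mir493 overlaps no annotated gene, and Mir337 (109585789 to 109585885, plus strand) overlaps only Mir3544 on the opposite strand. Mir370 lies in an intron of the noncoding RNA gene Rian.

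All 11 mature microRNAs of the 6 antisense genes were fully complementary to the annotated Rtl1 transcript, and all 11 sites fell in its coding sequence. The 2 products of Mir3071 matched Rtl1 in the same sense, and those of Mir493, Mir337 and Mir370 matched neither way over their full length. The matches follow from the position and strand of the genes and are not a separate result. The site of the most abundant gene, Mir127, is shown for each arm in the Rtl1 sense, with the bases opposite the seed in capitals; the 3p site lies at bases 2642 to 2663 and the 5p site at bases 2676 to 2697 of the 6358-base transcript. A match describes the sequence and does not show cleavage, since Rtl1 messenger RNA was not measured in these libraries.
Rtl1 opposite mmu-miR-127-3p: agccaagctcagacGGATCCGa
Rtl1 opposite mmu-miR-127-5p: atcagagccctctgAGCTTCAg

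Hairpin features differed within the set. Lengths ran from 62 bases in Mir136 to 124 in Mir433, and GC content from 40.3% in Mir136 to 60.4% in Mir431. The minimum free energy of folding per base, from RNAfold, was lowest (most stable) in Mir493 at -0.542 kcal/mol and highest in Mir432 at -0.316 kcal/mol. Internal repeats stood out in Mir434 and Mir431: a stretch of 13 bases occurs at 2 places in the Mir434 hairpin, and a stretch of 10 bases at 2 places in Mir431, against 4 to 7 bases in the other 8 genes. The whole Mir431 repeat lies in both of its arms. Neither arm of Mir434 holds its whole repeat, though each holds part of it. The repeats are in capitals in the Mir434 hairpin and in the Mir431 arms.
Mir434 hairpin: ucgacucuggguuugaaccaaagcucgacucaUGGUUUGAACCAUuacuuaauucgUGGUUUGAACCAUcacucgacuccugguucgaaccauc
mmu-miR-431-5p with repeat: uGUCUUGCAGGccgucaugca
mmu-miR-431-3p with repeat: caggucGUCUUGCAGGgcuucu

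Replicate 1 held 12701590 reads and replicate 2 held 7126319, of which 5237062 and 3026501 fell on a microRNA gene in its own orientation. Levels are counts per 1000000 of these reads (CPM), with exact 95% Clopper-Pearson intervals. As the reads carry no molecular identifiers, intervals and limits cover counting error only. An SD over 2 libraries rests on a single difference. In whole heart tissue, fewer cells of a type and less RNA per cell cannot be told apart.

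Mir127 dominated the group. It gave 18776 reads in replicate 1 and 13670 in replicate 2, or 3585 CPM (interval 3534 to 3637) and 4517 CPM (4442 to 4593), with a mean of 4051 ± 659 CPM (SD, n = 2). It was the most abundant microRNA gene between Dlk1 and Dio3 in both libraries and ranked 35th and 30th among all 2202 genes. Mir127 alone took 72.7% of the reads of the 10 genes in replicate 1 (72.1 to 73.2) and 80.1% in replicate 2 (79.5 to 80.7). It exceeded the next gene by 8.83-fold in replicate 1, where that was Mir433, and by 12.3-fold in replicate 2, where it was Mir337.

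**Figure D1:**
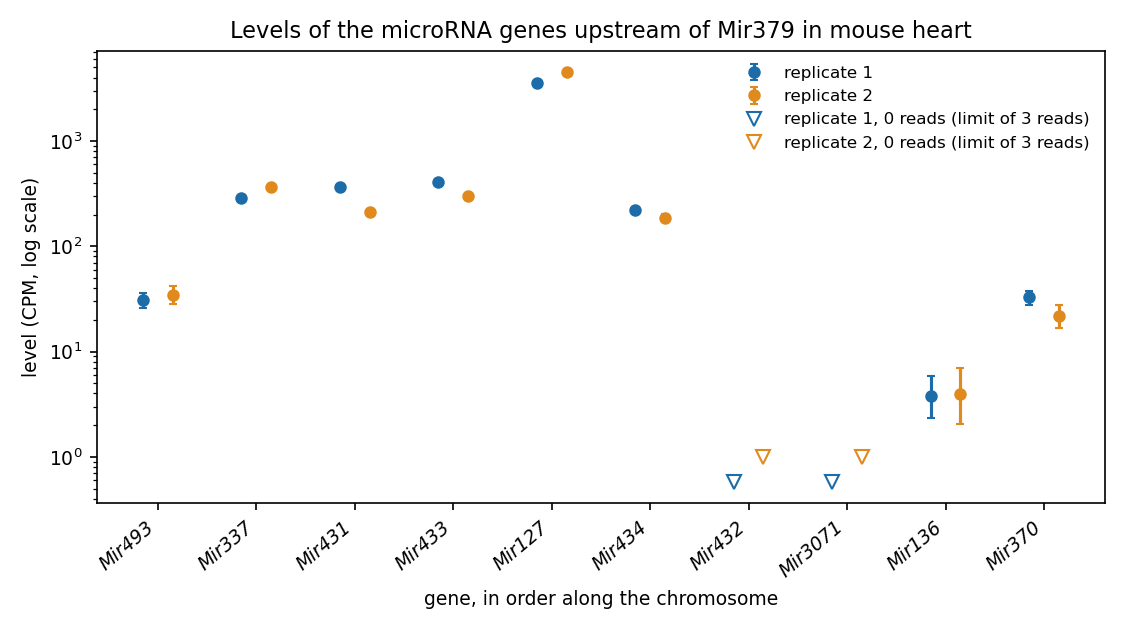
Level in CPM on a log scale of each of the 10 genes, in chromosomal order, in replicate 1 (blue) and replicate 2 (orange). Bars are exact 95% counting intervals and open triangles mark genes with 0 reads, drawn at the limit of 3 reads; Mir127 stands at 3585 and 4517 CPM, and Mir432 and Mir3071 had no read.

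Below Mir127, 4 genes formed a middle range, between 4.10% and 11.3% of its reads. Mir433, reported in mouse to promote cardiac fibrosis, had 2126 reads in replicate 1 and 913 in replicate 2, or 406 and 302 CPM. Mir337, which lies beyond the 3′ end of Rtl1, had 1507 and 1108 reads, or 288 and 366 CPM. Mir431, known in mouse for acting on muscle stem cells, had 1935 and 636 reads, or 369 and 210 CPM. These values overlap: Mir433 was second in replicate 1 and Mir337 second in replicate 2, while Mir431 passed Mir337 in replicate 1 only. Mir434 followed at 219 CPM (1146 reads) in replicate 1 and 185 CPM (560 reads) in replicate 2. It lay below Mir431 in both libraries, but its value in replicate 1 exceeded that of Mir431 in replicate 2.

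Mir493 and Mir370, the outermost genes, lay below Mir434 in every library. Mir493 had 161 reads in replicate 1 and 104 in replicate 2, which is 30.7 and 34.4 CPM. Mir370, which in human liver cells is known for acting on fatty acid oxidation, had 171 and 66 reads, which is 32.7 and 21.8 CPM. Their order differed between the libraries. Mir136 was the lowest gene with reads, at 20 reads (3.82 CPM, interval 2.33 to 5.90) in replicate 1 and 12 reads (3.96 CPM, 2.05 to 6.93) in replicate 2. Along the order by mean level (Mir127, Mir433, Mir337, Mir431, Mir434, Mir493, Mir370, Mir136), 3 of 7 neighbouring pairs had library values that did not overlap: Mir127 over Mir433, Mir434 over Mir493 and Mir370 over Mir136.

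Mir432 and Mir3071 had 0 reads in both libraries, although Mir432 lies between the expressed genes Mir434 and Mir136. The limit of 3 reads set for a count of 0 is 0.573 CPM for replicate 1 and 0.991 CPM for replicate 2. The upper ends of the two-sided intervals are slightly higher, at 0.704 and 1.22 CPM. The single annotated product of Mir432 and the 2 products of Mir3071 are shown with the seed in capitals.
mmu-miR-432: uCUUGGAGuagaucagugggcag
mmu-miR-3071-5p: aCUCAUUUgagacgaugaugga
mmu-miR-3071-3p: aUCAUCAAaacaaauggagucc

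With a minimum of 10 reads in both libraries, 8 of the 10 genes (80.0%) were detected, against 335 of all 2202 (15.2%), 32 of 38 Mir379 to Mir410 genes (84.2%) and 5 of 12 other microRNA genes between Dlk1 and Mir379 (41.7%). A mean above 100 CPM was reached by 5 of the 10, against 9 of the 38 Mir379 to Mir410 genes and 156 of all 2202. These shares describe the libraries, and many of the 2202 annotated genes had no read. Genes that share 20 bases with another hairpin can lose reads to several positions. They numbered 3 of the 12 other upstream genes, 5 of the 38 and 0 of the 10. Their part in the detected shares was not tested.

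The strand of the reads decided 3 of the genes. Mir136 and Mir3071 overlap on opposite strands over 62 bases, the whole of the Mir136 hairpin. The 5p product of Mir136 pairs with the 3p product of Mir3071 over 20 bases, and the 3p product of Mir136 with the 5p product of Mir3071 over 19 bases, so a read is assigned to one or the other by strand alone. The complementary bases of the first pair are in capitals.
mmu-miR-136-5p: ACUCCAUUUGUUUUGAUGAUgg
mmu-miR-3071-3p: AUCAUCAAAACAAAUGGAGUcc

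All 20 reads of replicate 1 and all 12 of replicate 2 at this site lay on the strand of Mir136. Counted without strand, they were ambiguous, and both genes stood at 0. Mir337 overlaps Mir3544 over 61 bases, the whole of that minus-strand gene. The strand of Mir337 held 1507 reads in replicate 1 and 1108 in replicate 2, and the strand of Mir3544 held 10 and 0. Without strand both were again listed at 0. The other 7 genes had 24315 own-strand reads in replicate 1 and 15949 in replicate 2, and 0 reads on the opposite strand in either. There were thus no reads in the sense of Rtl1 at Mir431, Mir433, Mir127 or Mir434.

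Together the 10 genes took 0.493% of the counted reads in replicate 1 (interval 0.487 to 0.499) and 0.564% in replicate 2 (0.556 to 0.573), a mean of 0.529% ± 0.0499 (SD, n = 2). The 6 genes antisense to Rtl1 accounted for 24003 of the 25842 reads in replicate 1 and 15791 of 17069 in replicate 2. Of all microRNA reads between Dlk1 and Dio3, the 10 genes held 38.8% in replicate 1 (38.5 to 39.2) and 43.5% in replicate 2 (43.0 to 44.0). Relative to the 38 plus-strand genes from Mir379 to Mir410, their summed reads gave a ratio of 0.675 in replicate 1 and 0.807 in replicate 2. Without Mir127 the ratio was 0.185 and 0.161. Mir127 took more of its group's reads than any gene of the Mir379 to Mir410 group did, where the top share was 20.6% in replicate 1 and 24.8% in replicate 2. Of those 38 genes, 5 share 20 bases with another hairpin and held 26.8% of their reads in replicate 1 and 25.1% in replicate 2, so the ratio holds for uniquely mapped reads. Without those 5 genes the ratio was 0.922 in replicate 1 and 1.08 in replicate 2, on either side of equality. The mean log2 ratio was then -0.0047 ± 0.16, against -0.44 ± 0.18 with them (SD, n = 2 each).

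**Figure D2:**
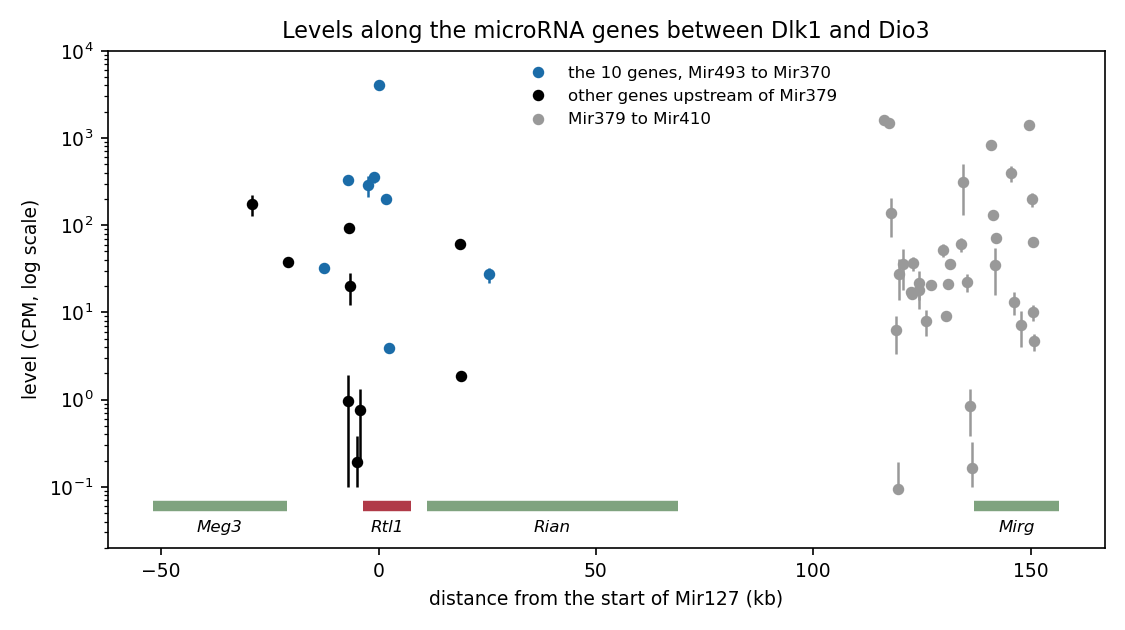
Mean level in CPM on a log scale against distance in kb from the start of Mir127 for those of the 10 genes, the other genes upstream of Mir379 and the 38 genes from Mir379 to Mir410 that had at least 1 read, with vertical lines joining the 2 libraries (values under 0.1 CPM are drawn at 0.1) and bars for the extent of Meg3, Rtl1, Rian and Mirg. Mir127, at 4051 CPM, is the highest point, and Rtl1 covers 4 of the 5 genes above 100 CPM in the group shown in blue.

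Among the 12 other microRNA genes between Dlk1 and Mir379, 5 were detected. Mir770, nearest to Dlk1 of these and inside Meg3, had 1159 reads (221 CPM) in replicate 1 and 385 reads in replicate 2. Mir540 had 105 and 81.3 CPM, Mir341 had 59.8 and 63.4 CPM, Mir673 had 194 and 117 reads, and Mir665 had 28.1 and 12.2 CPM. Each of these 5 lay below Mir433 in both libraries. Mir770, Mir540, Mir341 and Mir673 lay above Mir493, Mir370 and Mir136 in both. In replicate 1 Mir770 (221 CPM) also lay just above Mir434 (219 CPM). The remaining 7 of the 12 had at most 11 reads in a library, and Mir1906-1, Gm23912 and Mir882 had 0 in both. The genes outside the group closest to Mir127 in level over the 2 libraries, by distance in log2(CPM + 1), were Mir34a (3248 and 4291 CPM), Mir130a (3589 and 3944 CPM) and Mir30e (3335 and 3956 CPM), at distances of 0.16, 0.20 and 0.22.

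**Figure D3:**
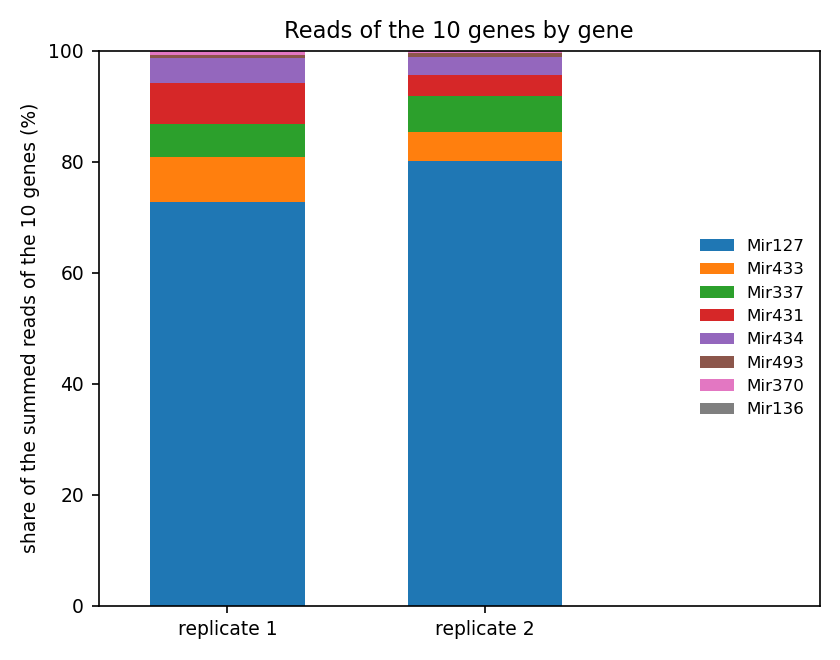
Share in percent of the summed reads of the 10 genes taken by each gene with reads, stacked, in replicate 1 and replicate 2. Mir127 (bottom) takes 72.7% in replicate 1 and 80.1% in replicate 2, and Mir431 (red) takes 7.49% and 3.73%.

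The genes did not keep fixed proportions between the libraries. Set against Mir127 in the same library, which needs no library size, Mir431 stood at 10.3% in replicate 1 and 4.65% in replicate 2. Mir433 stood at 11.3% and 6.68%, Mir434 at 6.10% and 4.10%, and Mir370, with 171 and 66 reads, at 0.911% and 0.483%. Mir337 stood at 8.03% in replicate 1 and 8.11% in replicate 2, so its proportion to Mir127 was nearly equal in both. Mir493 (0.857% and 0.761%) and Mir136 (0.107% and 0.0878%) rested on few reads, as did Mir370. Mir431, Mir433, Mir434 and Mir370 thus lay nearer to Mir127 in replicate 1 and further below it in replicate 2. Mir493 and Mir136 shifted the same way by less. The shift was therefore not limited to genes antisense to Rtl1.

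The libraries were compared gene by gene with an exact binomial test, two-sided, on library sizes scaled by TMM (p-values adjusted by Benjamini and Hochberg's method over 430 genes). It compares these 2 samples and not conditions, and tests counting error alone. Of the 8 genes tested, 4 were called, against 55.3% of all genes tested, so the share called was near the background. Mir431 was higher in replicate 1 by 1.60-fold (log2 difference 0.68, counting interval 0.55 to 0.81, adjusted p = 7.0e-26). Mir433 was higher by 1.23-fold (log2 0.29, 0.18 to 0.41, adjusted p = 6.1e-07). Mir127 was lower by 1.38-fold (log2 -0.47, -0.50 to -0.44, adjusted p = 9.6e-178) and Mir337 by 1.40-fold (log2 -0.48, -0.59 to -0.37, adjusted p = 3.4e-16). Called higher were 27.9% and called lower 27.4% of all genes tested.

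The other 4 genes were not called. Mir434 had a log2 difference of 0.11 (-0.039 to 0.26) and Mir493 one of -0.30 (-0.66 to 0.075). Mir370, at 0.44 (0.030 to 0.88), had an unadjusted p of 0.035 and an adjusted p of 0.061 by the exact test. Mir136, at -0.21 (-1.29 to 0.98), rested on 32 reads in all, which its interval reflects. With total counts in place of TMM, which moves the median of all genes by 0.13, 4 genes were called higher and 2 lower, as Mir434 and Mir370 gained a call, against 2 higher and 2 lower with TMM. The background was then 55.8% of all genes called, 33.5% higher and 22.3% lower. Mir370 was also called higher with DESeq2 size factors (adjusted p = 0.039 by the exact binomial test), where 55.3% of all genes were called, and with unstranded reads (adjusted p = 0.049 by the same test), where 53.6% of all genes were called. With no filter on low counts the same 6 genes were called as with total counts. The background was then 32.4% of 723 genes, against 430 genes with the filter. It takes in genes of low count, so it is not like for like with the other backgrounds. The log2 differences also moved close to those with total counts, at 0.24 in both settings for Mir434, and 0.57 against 0.58 for Mir370. Whether the filter or the scaling brought the added calls was not tested.

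Over the whole set the differences centred near those of all genes. The median log2 difference was -0.052 over the 8 genes and -0.050 over all 430. The SD of the log2 difference was 0.44 over the 8 detected genes, 0.77 over the 32 detected Mir379 to Mir410 genes and 0.90 over all 335 detected genes, a description without a test. The median absolute log2 difference, which extreme genes move less, lay closer together, at 0.37, 0.48 and 0.43 over the same sets. With a biological coefficient of variation of 0.424, estimated over all genes from the same 2 libraries, edgeR's exact test called 0 of the 8, against 0.93% of all genes tested. At an unadjusted p under 0.05 it found 0 of the 8, against 5.58% of all genes. This coefficient counts the difference between the libraries as spread, so few calls follow from the setting and decide nothing about the genes. At an assumed coefficient of 0.1 edgeR's exact test called Mir431 alone (adjusted p = 0.0092), against 28.6% of all genes.

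**Figure D4:**
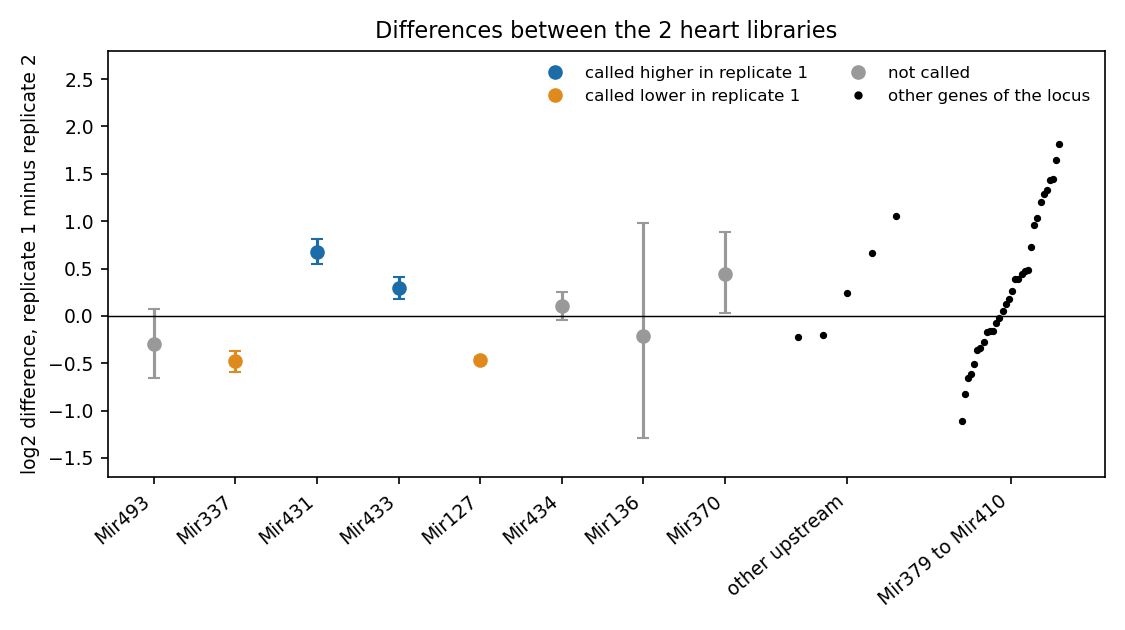
Log2 difference, replicate 1 minus replicate 2 after TMM scaling, of the 8 genes with reads (95% counting intervals; blue called higher, orange called lower, grey not called) beside the detected other genes upstream of Mir379 and those from Mir379 to Mir410 (black points, in rising order). Mir431 at 0.68 and Mir337 at -0.48 are the ends of the range of the 8 genes.

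The libraries also differed in blood and muscle markers, whose members did not all move one way. Of the 4 microRNAs listed as erythroid, Mir451a stood at 234 CPM in replicate 1 and 6393 CPM in replicate 2, and Mir144 at 103 and 579 CPM. Mir486 went the other way, at 658 CPM in replicate 1 and 410.4 CPM in replicate 2, as did Mir3107 at 21.6 and 11.9 CPM, so 2 of the 4 were called higher and 2 lower in replicate 1. Their sum was 0.102% of counted reads in replicate 1, where Mir486 made up most of it, and 0.739% in replicate 2, where Mir451a did. Of the heart muscle microRNAs, Mir208a (1356 CPM in replicate 1 and 641 CPM in replicate 2) and Mir499 (3482 and 2486 CPM) were called higher, and Mir208b (329 and 288 CPM) was not called. Leaving the erythroid genes out of library sizes and test left the scaling unchanged to 2 decimals, and the same 4 of the 10 genes were called, against 54.9% of all genes. This bears on the scaling alone: the part of blood or muscle content in the differences was not tested. Whether each listed microRNA is limited to blood cells, Mir486 and Mir3107 among them, was not tested either.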

How the data were processed

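Small RNA reads of 2 heart libraries were used as whole-number counts per microRNA gene, as deposited by the authors; their readme names mm10 and GENCODE M21. No source used here names the aligner, counter or trimming. The columns carry no header; the one holding reads on the gene's own strand was identified from its values and used. The 4 lines naming no gene stayed out: unmapped reads made up 13.4% of replicate 1 and 13.3% of replicate 2, reads with several positions 41.1% and 39.9%, and those outside genes 4.33% and 4.30%. Sequences came from RefSeq (GRCm38.p6; 10 of 10 genes matched) and GENCODE transcripts, and folding from RNAfold 2.7.2. Genes with at least 10 reads in sum were tested, with 0.5 reads added in log2 differences and a threshold of 0.05. A gene was detected at 10 reads or more in each library, and 3 reads served as the floor for a count of 0.

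The genes and lists were chosen with earlier results of these data known. Named were the 10 genes, the detected genes upstream of Mir379, the 3 genes nearest to Mir127 in level, and genes overlapping or sharing bases with one of the 10; Mir1906-1, Gm23912 and Mir882 were named after their values were seen. The labels call the samples biological replicates without naming litters. With 1 group of 2 libraries no quasi-likelihood test could be fitted, and p-values measure only counting error between these libraries. Tools were edgeR 4.0.16 and DESeq2 1.42.0 under R 4.3.3, and numpy 2.4.6, pandas 2.3.3, matplotlib 3.10.9 and scipy 1.17.1 under Python 3.11.15. The test was tested on simulated data. Alternatives were edgeR's exact test, other scalings, no filter, denominators, read minimums, unstranded reads, a pseudocount of 10 and each replicate alone; settings without the erythroid genes, or scaled to the Mir379 to Mir410 reads, and the alternatives for the order of the levels and the share of Mir127 were added after seeing the data.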

Additional observations from a re-analysis of the deposited data

Results flagged for a closer look

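On the strand opposite Mir337, 10 reads were counted in replicate 1 and 0 in replicate 2. They stood out because opposite-strand reads are outside the levels reported and exceed the 3 reads that a count of 0 allows. They are the 10 reads listed for Mir3544 on its own strand. The difference between the libraries in these reads was not called (adjusted p = 0.052 by the exact binomial test).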

How the results depend on the processing

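The count of called genes was 4 with TMM (55.3% of all genes tested were called). Scaling by DESeq2 size factors gave 5 (55.3%), total counts gave 6 (55.8%) and no filter gave 6 (32.4% of 723 genes, low counts included). Scaling to the Mir379 to Mir410 reads gave 6 (55.3%). Unstranded reads gave 4 of 6 genes tested (53.6%), and leaving out the erythroid genes gave 4 (54.9%). The exact test of edgeR gave 1 at a coefficient of 0.1 (28.6%) and 0 at the estimated one (0.93%). The share called over all genes was thus lower in these edgeR settings too. No log2 difference changed sign under the 5 alternatives run for it. The share of reads was 0.221% of all reads in a library, 0.679% with unstranded reads and 0.751% without genes that share 20 bases, where numerator or denominator is another by construction. The log2 ratio to the Mir379 to Mir410 genes, -0.44 (mean of 2 libraries), was -2.54 without Mir127 and -0.0047 without genes that share 20 bases (-0.12 in replicate 1 and 0.11 in replicate 2). Detected were 6 to 8 genes under all minimums from 1 to 100 reads, and 6 with unstranded reads. With 1 replicate alone, the share was 0.493% to 0.564%, the log2 ratio -0.57 to -0.31, and 8 genes were detected. Neighbouring pairs apart in level were 4 with TMM and 3 with the other denominators. Mir136 rests on 32 reads in all, and Mir432 and Mir3071 had none. No paired analysis was possible because there is only 1 group.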
